A study of Mus musculus with 4 samples.

Results

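The genes described here are the keratins, the claudins and a set of epithelial junction genes, measured by RNA sequencing in the stromal vascular fraction of mouse inguinal white adipose tissue. They were chosen by symbol: every listed keratin (Krt) and claudin (Cldn) gene with a number and at most 1 letter after it, together with Cdh1, Epcam, Dsp, Dsc1, Dsc2, Dsc3, Dsg1a, Dsg2, Pkp1, Pkp3, Ehf, Elf3, Spint1 and Prom1. This gave 95 genes of the 26214 listed: 28 type I keratins, 27 type II keratins, 26 claudins, 10 adhesion and desmosome genes and 4 epithelial regulators and surface genes. The libraries came from mice treated with a medicinal herb extract (MHE, 2 libraries) and from mice treated with phosphate-buffered saline (PBS, 2 libraries), and the comparison asks which genes differed with the extract. The labels call the libraries biological replicates without naming animals, so p-values measure only the spread between these libraries. Strain, age, sex, diet, dose and duration are not stated in the labels, nor is whether animals were pooled.

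Keratins are the intermediate filament proteins of epithelial cells, and each filament pairs a type I with a type II keratin. The partners KRT8 and KRT18, often with KRT19, belong to simple epithelia such as ducts and body cavity linings, while KRT5 and KRT14 belong to basal layers. Claudins are the membrane proteins that seal tight junctions between neighbouring cells, and endothelial cells and myelinating glia have claudins of their own. Desmosomes anchor keratin filaments at cell contacts through the cadherins of the desmocollin and desmoglein families, plakophilins and desmoplakin, and E-cadherin, encoded by Cdh1, holds adherens junctions together. Digesting fat and discarding the floating adipocytes leaves the stromal vascular fraction, a mixture of progenitor, vascular and immune cells that is not known as epithelial. Inguinal fat also holds a lymph node, vessels and nerves.

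Library totals were 27161882 to 33391075 counts, and levels are given as CPM, a gene's counts relative to its library total, which was scaled by TMM factors. Of 16196 genes tested with edgeR's quasi-likelihood test, 799 (4.93%) passed at an adjusted p of 0.05, 643 higher with MHE and 156 lower, whereas DESeq2 called 2951, of which 1714 were higher and 1237 lower. Mature adipocyte markers took 3.75% to 9.14% of the counts in a fraction from which floating adipocytes are normally removed. PBS replicate 1 stood apart in the genes described here, so results are given with and without it. In bulk tissue, fewer cells of a type and less RNA per cell cannot be told apart.

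Counts were found for 67 of the 95 genes, and 17 of those had fewer than 10 counts over all libraries. The 28 genes at 0 in every library were Dsc1, 5 claudins (Cldn16, Cldn17, Cldn20, Cldn25 and Cldn34a) and 22 keratins, among them the hair keratins Krt31, Krt33a, Krt33b, Krt34, Krt81 and Krt86 and the epidermal Krt2. A count of 0 allows a level of up to 0.0903 to 0.108 CPM, depending on the library, and covers counting error only. The filter on low counts passed 34 of the 95 genes. It asks for counts in at least 2 libraries, so genes high in a single library, such as Krt18, Cldn7 and Cldn8, were not tested and are described by their values.

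1 of the 34 tested genes passed the test, the desmosomal cadherin gene Dsc3, which rose with MHE. That is 2.94% of the tested genes, beside 4.93% of all genes tested, where 3.97% were higher and 0.963% lower. DESeq2 called 12 of the 34 (35.3%, beside 18.2% of all), with Cldn1, Dsc2, Dsc3 and Pkp3 higher and Cldn3, Cldn5, Cldn15, Cldn22, Krt19, Krt80, Pkp1 and Prom1 lower with MHE. Of the 34, 15 had an unadjusted p under 0.05, where 28.6% of all genes did. The MHE libraries lay above both PBS libraries in 7 of the 34 and below both in 11, against 33.1% and 28.9% of all tested genes. The median log2 fold change (MHE minus PBS) of the 34 was -0.97, and -0.02 over all tested genes. Without PBS replicate 1, 35 genes of the set were tested and their median was 0.10, so the sign changed with that library left out.

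The libraries were then compared singly. Among the 37 genes with at least 50 counts in some library, 22 were highest in PBS replicate 1, a share of 59.5% where 22.0% of all such genes were highest there. In 13 of the 37 (35.1%), PBS replicate 1 was at least 10-fold above each of the other libraries, and 1.87% of all 14923 such genes did the same. None of the 37 stood 10-fold above in any other library. These thresholds were chosen after the values were seen, and the shares describe the libraries without a test.

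**Figure D1:**
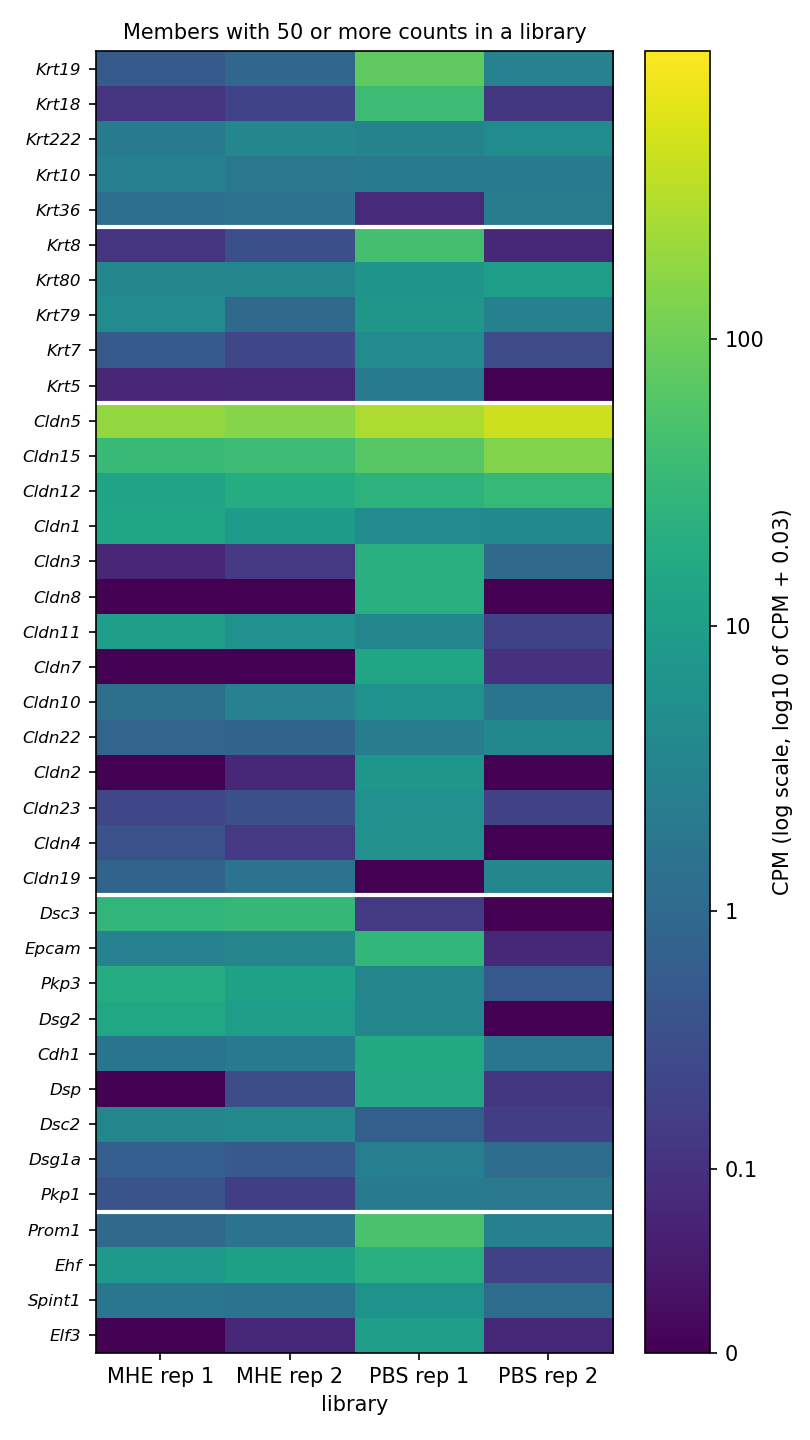
CPM on a log scale, as colour, of the 37 genes with at least 50 counts in some library, in the MHE and PBS libraries (columns), grouped from top to bottom as type I keratins, type II keratins, claudins, adhesion and desmosome genes, and epithelial regulators and surface genes. PBS replicate 1 is brightest for 22 of the 37 genes, among them Krt8, Krt18 and Krt19, and Dsc3 is bright in the MHE libraries alone.

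Promoters are shown for genes of contrasting patterns: Krt8 and its filament partner Krt18, which lie near each other on chromosome 15, Cldn4 and Epcam, all highest in PBS replicate 1, then Cldn1, higher in the MHE libraries, and Cldn5, the abundant endothelial claudin. The sequences are RefSeq's, in build GRCm38.p6 (the assembly of mm10), and run from 250 bases before to 50 bases after each gene's start. Capitals mark CACCTG, or CAGGTG where the string lies on the other strand, the E-box that repressors of epithelial genes (ZEB and SNAIL proteins) bind. Krt8 is at chr15:102004293-102004592 (minus strand), Krt18 at chr15:102027966-102028265 (plus), Cldn4 at chr5:134946885-134947184 (minus), Epcam at chr17:87635729-87636028 (plus), Cldn1 at chr16:26371790-26372089 (minus) and Cldn5 at chr16:18776597-18776896 (plus).
Krt8: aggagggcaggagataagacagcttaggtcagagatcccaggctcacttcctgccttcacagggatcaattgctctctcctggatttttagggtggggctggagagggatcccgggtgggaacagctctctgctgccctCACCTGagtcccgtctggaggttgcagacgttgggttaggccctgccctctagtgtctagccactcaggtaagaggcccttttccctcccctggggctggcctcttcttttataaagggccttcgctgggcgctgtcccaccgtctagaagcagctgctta
Krt18: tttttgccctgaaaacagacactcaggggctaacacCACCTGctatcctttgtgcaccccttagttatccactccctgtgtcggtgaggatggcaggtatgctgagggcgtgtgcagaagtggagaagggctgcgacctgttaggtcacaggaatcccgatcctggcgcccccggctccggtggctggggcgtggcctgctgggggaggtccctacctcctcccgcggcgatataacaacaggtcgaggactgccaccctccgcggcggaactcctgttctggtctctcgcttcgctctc
Cldn4: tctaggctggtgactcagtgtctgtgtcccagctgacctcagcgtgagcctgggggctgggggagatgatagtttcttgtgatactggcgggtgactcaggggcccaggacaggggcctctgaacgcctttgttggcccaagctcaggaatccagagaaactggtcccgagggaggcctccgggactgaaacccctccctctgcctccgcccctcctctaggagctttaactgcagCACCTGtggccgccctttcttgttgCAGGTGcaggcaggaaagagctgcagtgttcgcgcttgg
Epcam: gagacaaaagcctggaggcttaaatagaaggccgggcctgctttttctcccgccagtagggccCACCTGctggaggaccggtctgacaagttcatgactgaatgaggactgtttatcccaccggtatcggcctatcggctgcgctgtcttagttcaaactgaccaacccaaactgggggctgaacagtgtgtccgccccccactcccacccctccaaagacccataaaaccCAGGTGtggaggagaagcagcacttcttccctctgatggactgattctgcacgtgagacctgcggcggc
Cldn1: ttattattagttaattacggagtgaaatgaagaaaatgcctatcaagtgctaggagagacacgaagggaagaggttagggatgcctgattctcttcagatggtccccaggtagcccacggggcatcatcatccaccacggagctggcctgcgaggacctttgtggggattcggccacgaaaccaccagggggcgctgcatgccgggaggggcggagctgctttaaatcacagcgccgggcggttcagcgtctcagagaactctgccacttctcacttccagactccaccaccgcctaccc
Cldn5: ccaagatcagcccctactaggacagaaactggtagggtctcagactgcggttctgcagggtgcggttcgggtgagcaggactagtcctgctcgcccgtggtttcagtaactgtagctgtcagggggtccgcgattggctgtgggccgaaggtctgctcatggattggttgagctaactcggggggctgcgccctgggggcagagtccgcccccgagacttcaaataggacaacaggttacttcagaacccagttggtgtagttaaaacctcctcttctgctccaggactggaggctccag

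Of the 13 genes at least 10-fold above in PBS replicate 1, 10 had a promoter in the RefSeq table, and 9 of those held CACCTG on either strand (Cldn3, Cldn4, Cldn7, Dsp, Elf3, Krt5, Krt8, Krt18 and Prom1). Of the other 24 genes with at least 50 counts in some library, 14 had a promoter there and 4 held it (Epcam, Krt7, Krt10 and Krt79). Over the whole set it was found in 25 of 62 genes with a promoter, and in 20.2% of all 32841 promoters of this length. The other strings were also searched on both strands. GGAAG, the core read by ETS factors such as EHF and ELF3, was in 5 of the 10, 9 of the 14 and 71.4% of all promoters. GGGCGG, a GC box, was in 5 of the 10, 10 of the 14 and 35.7% of all. TATAAA was in 2 of the 10, 1 of the 14 and 13.6% of all. AACCNGTT, read by grainyhead-like factors, was in 1 of the 10, 1 of the 14 and 2.09% of all. Matches of different strings may overlap, a gene counted once if any of its listed promoters matched, and a match says only that the letters are there. The strings were searched with the library pattern known, and the choice of CACCTG for the capitals and of the promoters shown followed the match counts, so these shares are a description without a test.

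The type I keratins were led by Krt19 and Krt18, the simple epithelial forms. Krt19 (chromosome 11, 100140810 to 100145926) had 0.542 and 0.913 CPM in MHE replicates 1 and 2, and 78.6 and 3.04 CPM in PBS replicates 1 and 2. The MHE libraries were thus below both PBS libraries, yet PBS replicate 1 was 25.8-fold above PBS replicate 2, and the log2 fold change of -5.81 ± 1.64 (SE) had an adjusted p of 0.106 by edgeR. Without PBS replicate 1 it was -2.08 with an adjusted p of 0.0451. Krt18 (chromosome 15, 102028216 to 102032026) had 4 and 6 counts in the MHE libraries, and 1057 and 4 counts in PBS replicates 1 and 2, which is 0.120 and 0.211 CPM against 38.2 and 0.135 CPM. Outside PBS replicate 1, Krt18 was thus at a level close to that of a few reads.

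The remaining type I keratins were low. Krt10, a keratin of differentiating epidermis, had 2.62 and 1.90 CPM with MHE and 2.17 and 2.26 CPM with PBS, and its log2 fold change of 0.03 ± 0.45 turned to -0.004 with median-of-ratios factors. Krt222, a keratin-like gene, had 2.29 and 3.69 CPM with MHE and 3.10 and 4.77 CPM with PBS (log2 fold change -0.40 ± 0.46, adjusted p = 0.597). Neither separated the groups. Krt20, a keratin of gut and bladder lining, had 0.783 and 1.26 CPM with MHE against 0.578 and 0.439 CPM with PBS (1.00 ± 0.63, adjusted p = 0.344), and Krt36, a hair keratin, had 44 and 45 counts in the MHE libraries and 2 and 69 counts in the PBS libraries (0.27 ± 1.31, adjusted p = 0.910). The basal keratin Krt14 had 7 and 3 counts with MHE and 29 and 0 counts with PBS, too few for the test. Krt15, Krt23 and Krt32 had at most 16 counts in any library, and the 8 other type I keratins with counts, Krt16 among them, at most 7.

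Among type II keratins, Krt8 showed the same profile as Krt18. Krt8 (chromosome 15, 101996711 to 102004342) had 0.120 and 0.351 CPM in the MHE libraries, and 46.4 and 0.0676 CPM in PBS replicates 1 and 2, with a log2 fold change of -6.63 ± 2.57 and an adjusted p of 0.174. PBS replicate 2 lay below both MHE libraries, so the groups overlapped, and without PBS replicate 1 the log2 fold change was 1.71. Per kilobase of exon, the level of Krt8 in PBS replicate 1 was 23.7 CPM and that of Krt18 was 26.6 CPM, close to each other for filament partners, and that of Krt19 was 42.4 CPM. Krt7, another simple epithelial keratin, had 18 and 7 counts with MHE and 126 and 9 counts with PBS (log2 fold change -2.60 ± 1.32, adjusted p = 0.259), and the basal keratin Krt5 had 2 and 2 counts with MHE and 59 and 0 counts with PBS. In both, PBS replicate 1 alone was high.

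Krt80 and Krt79 were measured in every library. Krt80, a keratin found with cell contacts, had 3.73 and 3.55 CPM with MHE and 6.43 and 10.1 CPM with PBS, a log2 fold change of -1.18 ± 0.36 (adjusted p = 0.117; 0.0255 without PBS replicate 1). Its groups did not overlap and its MHE libraries were close together. Krt79, known from hair follicle and sebaceous ducts, had 4.55 and 1.05 CPM with MHE and 7.29 and 2.94 CPM with PBS, so that the spread within each group was as wide as the difference (-0.86 ± 0.83, adjusted p = 0.525). Krt4 had 31 and 9 counts with MHE and 19 and 4 counts with PBS (0.61 ± 1.03, adjusted p = 0.723). Krt78 had at most 19 counts in any library, and Krt73, Krt75, Krt77, Krt83, Krt85 and Krt87 at most 9. The epidermal Krt1 and the wound keratins Krt6a and Krt16 had at most 13, 4 and 7 counts in any library; reads of Krt6a, Krt16 and near-identical keratins cannot be assigned with certainty.

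Claudins formed the most abundant group, because of Cldn5, Cldn15 and Cldn12. Cldn5, the claudin of blood vessel endothelium (chromosome 16, 18776847 to 18778262), had 182 and 152 CPM with MHE and 275 and 458 CPM with PBS. Cldn15, a pore-forming claudin best known from intestine (chromosome 5, 136967869 to 136975845), had 34.0 and 37.4 CPM with MHE and 66.8 and 138 CPM with PBS. Cldn12, a claudin of wide distribution (chromosome 5, 5505015 to 5514976), had 13.3 and 18.7 CPM with MHE and 24.8 and 31.9 CPM with PBS. In all 3 genes both MHE libraries were below both PBS libraries, and PBS replicate 2 was the highest library.

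None of the 3 passed the edgeR test with all libraries. The log2 fold changes were -1.13 ± 0.34 for Cldn5 (adjusted p = 0.119), -1.52 ± 0.38 for Cldn15 (adjusted p = 0.0870) and -0.82 ± 0.27 for Cldn12 (adjusted p = 0.133). Without PBS replicate 1, Cldn5 and Cldn15 passed (-1.47 and -1.97, adjusted p = 0.0198 and 0.00104), judged on the spread of the MHE pair alone, and Cldn12 had -1.01 (adjusted p = 0.0608). None of the 10 blood endothelial markers passed. All 10 had negative log2 fold changes (median -0.70), from -1.12 for Sox17 and -1.11 for Cdh5 to -0.09 for Pecam1 and -0.02 for Egfl7. Of all 16196 tested genes, 8287 had negative log2 fold changes. In Cdh5, Tie1, Esam, Sox17 and Robo4 both MHE libraries were below both PBS libraries. The groups overlapped in Pecam1, Kdr, Tek, Egfl7 and Emcn. The summed level of all 10 was 878 and 878 CPM with MHE and 928 and 1681 CPM with PBS, so in that sum PBS replicate 2 alone stood well above the rest. Mature adipocyte markers summed to 35100 and 50140 CPM with MHE and 54470 and 103100 CPM with PBS. The part of either cell type in the claudin levels was not tested.

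Per kilobase of exon, Cldn5 was the highest gene of the whole set in every library, with levels of 128 and 108 CPM in the MHE libraries and 194 and 323 CPM in the PBS libraries. Cldn15 followed with 16.0 and 17.6 CPM with MHE, and in PBS replicate 2 with 65.1 CPM; in PBS replicate 1 it had 31.5 CPM and Krt19 stood above it. The neighbouring and similar genes Cldn22 and Cldn24 were low. Cldn22 had 0.873 and 0.807 CPM with MHE and 2.38 and 3.85 CPM with PBS (log2 fold change -1.89 ± 0.51, adjusted p = 0.0971), and its exon overlaps the gene Wwc2, so its reads may belong to either. Cldn24 had 0.181 and 0.456 CPM with MHE and 0.794 and 1.32 CPM with PBS (adjusted p = 0.209), and the groups overlapped in neither gene.

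**Figure D2:**
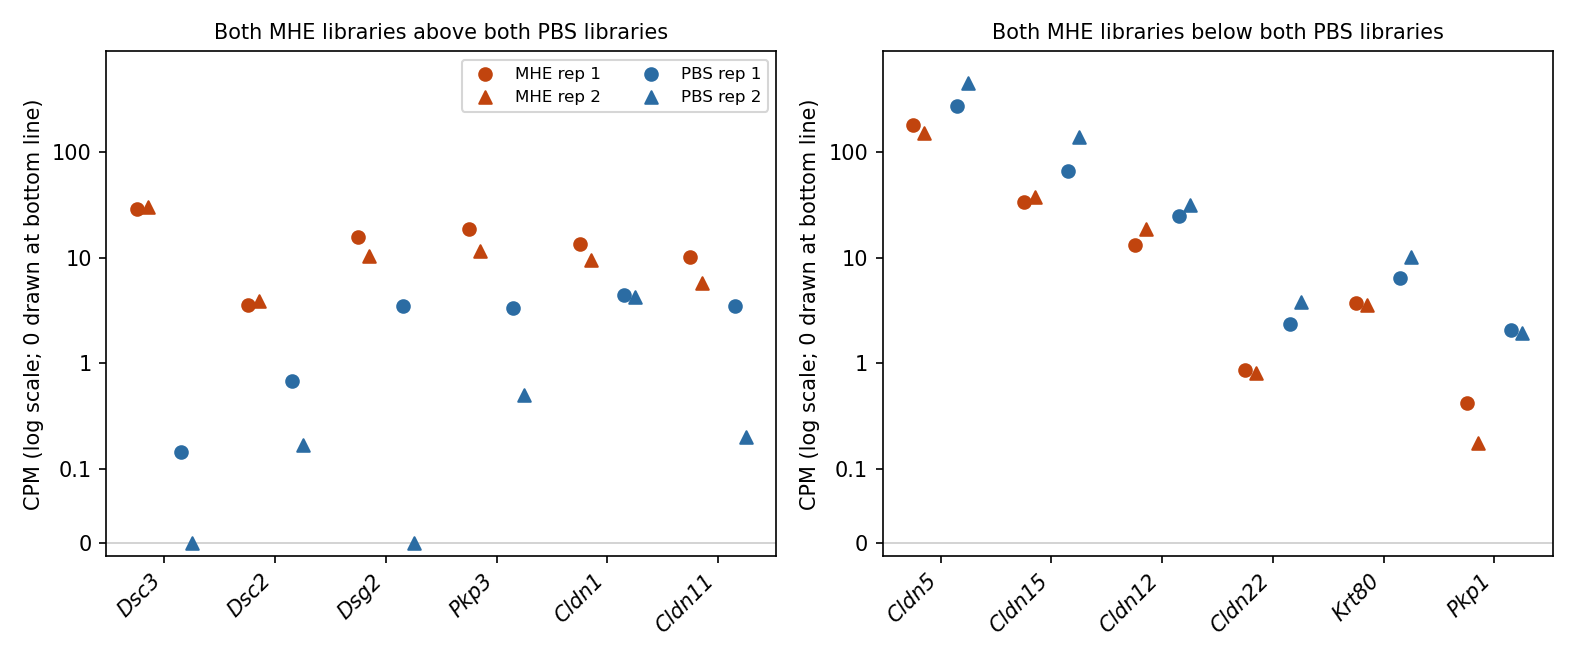
CPM on a log scale of 12 genes in every library, MHE (orange) left of PBS (blue), circles for replicate 1 and triangles for replicate 2, with 0 drawn at the bottom line. On the left the MHE libraries lie above the PBS libraries, with Dsc3 at 29.0 and 30.6 CPM against 0.144 and 0 CPM, and on the right they lie below, with Cldn5 at 182 and 152 CPM against 275 and 458 CPM.

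Another group of claudins was found almost wholly in PBS replicate 1. Cldn8, a barrier-forming claudin of ducts and tubules, had 0 and 0 counts in the MHE libraries and 580 and 0 counts in PBS replicates 1 and 2. Cldn7, which is found with Epcam in many epithelia, had 0 and 0 counts with MHE and 371 and 3 counts with PBS, and the pore-forming Cldn2 had 0 and 2 counts with MHE and 204 and 0 counts with PBS. Cldn3 and Cldn4, neighbours on chromosome 5 and receptors of a bacterial toxin, had 0.0602 and 0.140 CPM (Cldn3) and 0.361 and 0.140 CPM (Cldn4) with MHE, against 21.9 and 1.08 CPM (Cldn3) and 5.81 and 0 CPM (Cldn4) with PBS. Cldn3 was below both PBS libraries in both MHE libraries and had a log2 fold change of -6.81 ± 1.73 (adjusted p = 0.0882; -3.42 and 0.0506 without PBS replicate 1), while Cldn4 (-3.50 ± 2.10, adjusted p = 0.327) and Cldn23 (-3.32 ± 1.51, adjusted p = 0.222) overlapped between groups. Cldn23 had 8 and 10 counts with MHE and 160 and 6 counts with PBS. Cldn10 had 1.35 and 3.05 CPM with MHE and 6.10 and 1.66 CPM with PBS (-0.82 ± 0.78, adjusted p = 0.525), a smaller excess in the same library.

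Cldn1 and Cldn11 were the claudins whose MHE libraries lay above both PBS libraries. Cldn1, the claudin of the epidermal barrier (chromosome 16, 26356645 to 26371839), had 13.5 and 9.48 CPM with MHE and 4.48 and 4.29 CPM with PBS. Its log2 fold change was 1.39 ± 0.31 with an adjusted p of 0.0683, and DESeq2 gave 0.00768. The PBS libraries were close to each other for this gene, and it had 1.41 and an adjusted p of 0.0432 without PBS replicate 1. Cldn11, the claudin of oligodendrocytes and Sertoli cells, had 10.3 and 5.79 CPM with MHE and 3.50 and 0.203 CPM with PBS, with a 17.3-fold gap between the PBS libraries (log2 fold change 2.12 ± 1.17, adjusted p = 0.294).

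Cldn19, a claudin of kidney tubules and of Schwann cells, differed more within PBS than between groups. It had 28 and 44 counts with MHE, and 0 and 110 counts in PBS replicates 1 and 2 (log2 fold change -0.64 ± 1.73, adjusted p = 0.829). PBS replicate 1 was the lowest library and PBS replicate 2 the highest. Over all 8 Schwann cell markers the summed level was 239 and 320 CPM with MHE and 282 and 488 CPM with PBS, with none at 0 in any library; their part in Cldn19 was not tested. Cldn14, Cldn18 and the sparse Cldn6, Cldn9, Cldn13 and Cldn34d had at most 27, 12, 2, 4, 7 and 2 counts in any library.

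Desmosomal genes differed in which libraries were high: both MHE libraries for Dsc3, Dsc2, Dsg2 and Pkp3, PBS replicate 1 for Dsp, and both PBS libraries for Pkp1 and Dsg1a. Dsc3, desmocollin 3, a cadherin of stratified epithelia (chromosome 18, 19960930 to 20002410), had 962 and 872 counts in MHE replicates 1 and 2, and 4 and 0 counts in PBS replicates 1 and 2. That is 29.0 and 30.6 CPM with MHE against 0.144 and 0 CPM with PBS, a mean of 29.8 ± 1.17 CPM and of 0.0722 ± 0.102 CPM (SD, n = 2 each), with no overlap. The log2 fold change of 8.65 ± 0.76 had an adjusted p of 0.0210. Leaving out MHE replicate 1 or 2, when no gene of all those tested was called, left 8.69 and 8.61 with adjusted p of 0.311 and 0.267, and leaving out PBS replicate 2 gave 7.66. Against PBS replicate 2 alone, Dsc3 was at least 294-fold higher, taking 3 counts as the most that a count of 0 allows.

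Its relatives Dsc2, Dsg2 and Pkp3 were on the same side, without passing. Dsc2, the most widely used desmocollin (chromosome 18), had 3.55 and 3.93 CPM with MHE and 0.686 and 0.169 CPM with PBS (log2 fold change 3.12 ± 0.76, adjusted p = 0.0807). Dsg2, its desmoglein counterpart, had 15.6 and 10.4 CPM with MHE and 3.54 and 0 CPM with PBS (2.88 ± 1.57, adjusted p = 0.287). Pkp3, plakophilin 3, which links desmosomal cadherins to desmoplakin (chromosome 7, 141078229 to 141090511), had 18.9 and 11.5 CPM with MHE and 3.36 and 0.507 CPM with PBS (2.98 ± 0.88, adjusted p = 0.115). In all 3 the MHE libraries were above both PBS libraries and PBS replicate 2 was lowest. Without PBS replicate 1 all 3 passed (4.42 for Dsc2 and 4.88 for Pkp3, and Dsg2 at least 128-fold higher than in PBS replicate 2), and they also passed without PBS replicate 2 (2.45, 1.89 and 2.19 for Dsc2, Dsg2 and Pkp3).

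Desmoplakin did not follow them. Dsp, the plaque protein that every desmosome needs to hold keratin filaments, had 0 and 9 counts in the MHE libraries and 440 and 4 counts in PBS replicates 1 and 2, so it was near 0 where Dsc3, Dsg2 and Pkp3 were highest. The keratins Krt8 and Krt18 were also at 10 or fewer counts in both MHE libraries. Pkp1, plakophilin 1, had 0.421 and 0.176 CPM with MHE and 2.09 and 1.93 CPM with PBS, on the other side from Pkp3 (log2 fold change -2.72 ± 0.67, adjusted p = 0.0827), and Dsg1a, an epidermal desmoglein with near-identical copies, had 0.632 and 0.527 CPM with MHE and 2.67 and 1.15 CPM with PBS (-1.71 ± 0.66, adjusted p = 0.170). Pkp1 and Dsg1a did not overlap between groups.

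Lymphoid and dendritic cell markers were also at higher summed levels in both MHE libraries. Over all 16196 tested genes, 4.93% passed and 3.97% passed as higher with MHE. B cell markers, 9 tested, summed to 1970 and 1574 CPM with MHE and 107 and 9.33 CPM with PBS, 4 passed and the median log2 fold change was 4.91. T cell markers, 9 tested, summed to 877 and 661 CPM with MHE and 34.2 and 12.0 CPM with PBS, and all 9 passed with a median of 5.01. Langerhans and migratory dendritic cell markers, 10 tested, summed to 612 and 554 CPM with MHE and 122 and 137 CPM with PBS, and 6 passed with a median of 3.16. Lymph node stroma markers, 7 tested, summed to 234 and 154 CPM with MHE and 82.6 and 77.8 CPM with PBS, and 3 passed. Lymphatic endothelial markers, 8 tested, summed to 871 and 618 CPM with MHE and 237 and 72.9 CPM with PBS, and 1 passed. Ccl21a alone gave 630 and 375 CPM of the MHE sums, and 124 and 1.22 CPM of the PBS sums. The log2 fold changes were positive in 7 of the 8, with Pdpn at -0.60 and a median of 1.68. Of the markers found in the files, none of these 5 lists had a gene at 0 in all libraries, and their part in the desmosomal genes was not tested.

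Epcam and Ehf joined both patterns. Epcam, an adhesion molecule of simple epithelia and of Langerhans cells (chromosome 17, 87635979 to 87651127), had 99 and 97 counts with MHE and 832 and 2 counts in PBS replicates 1 and 2. Its levels were 2.98 and 3.41 CPM with MHE against 30.0 and 0.0676 CPM with PBS, so that PBS replicate 1 was 444-fold above PBS replicate 2 and the MHE libraries lay between them. The log2 fold change was -2.24 ± 1.87 with all libraries (adjusted p = 0.468) and 5.46 without PBS replicate 1 (adjusted p = 0.00190). Ehf, an ETS transcription factor of epithelia, had 8.28 and 11.1 CPM with MHE and 20.2 and 0.203 CPM with PBS. Its log2 fold change of -0.07 ± 1.54 changed sign with library totals alone (0.006), and it was 5.53 without PBS replicate 1 (adjusted p = 2.02e-04). Beside these, the Langerhans cell gene Cd207 had 123 and 13 counts with MHE and 14 and 0 counts with PBS.

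Cdh1, Prom1, Elf3 and Spint1 were highest in PBS replicate 1. Cdh1 (chromosome 8, 106603350 to 106670247) had 1.69 and 2.21 CPM with MHE and 16.6 and 1.79 CPM with PBS, so 3 of the libraries were alike and the log2 fold change of -2.24 ± 1.03 was 0.10 without PBS replicate 1. Prom1, a membrane protein of apical protrusions and of stem cells, had 1.08 and 1.58 CPM with MHE and 49.5 and 2.87 CPM with PBS (log2 fold change -4.30 ± 1.36, adjusted p = 0.127; -1.13 and 0.205 without PBS replicate 1). Elf3, an ETS factor related to EHF, had 0 and 2 counts with MHE and 280 and 2 counts with PBS, unlike Ehf, which had 275 and 316 counts with MHE. Spint1, an inhibitor of membrane serine proteases, had 1.78 and 1.61 CPM with MHE and 6.03 and 1.15 CPM with PBS (-1.08 ± 0.83, adjusted p = 0.432).

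**Figure D3:**
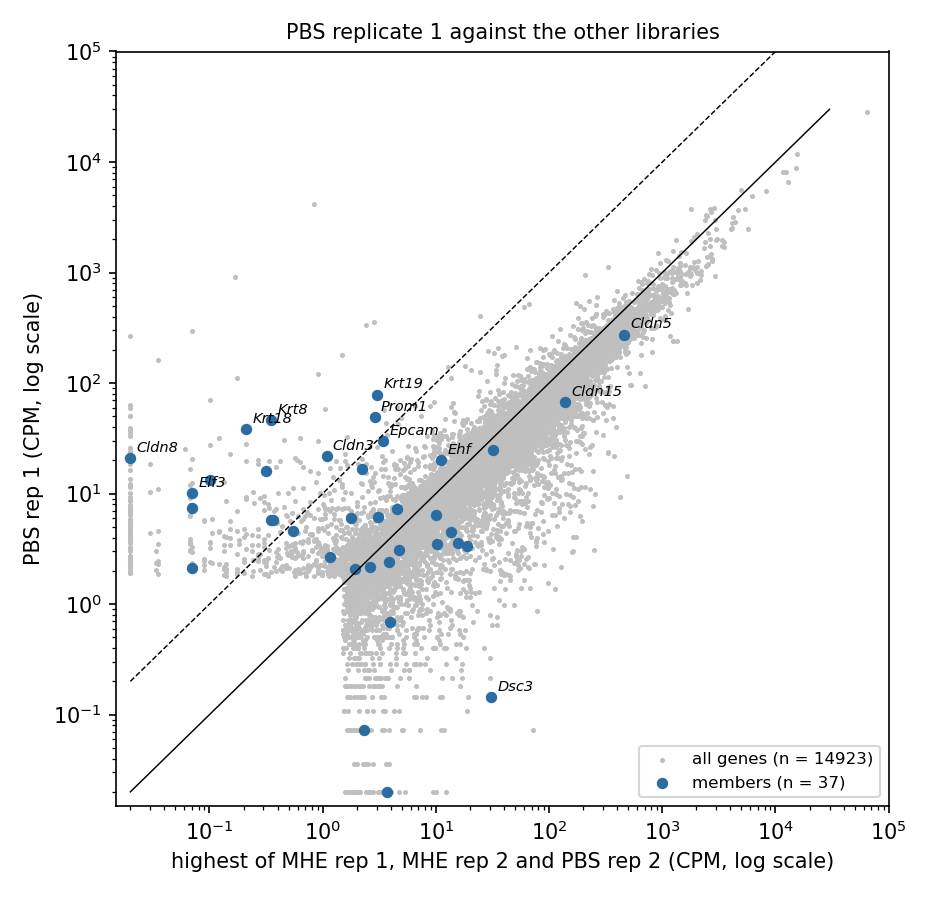
CPM in PBS replicate 1 (y axis) against the highest CPM among both MHE libraries and PBS replicate 2 (x axis), both on log scales with 0 drawn at 0.02, for all 14923 genes with at least 50 counts in some library (grey) and the 37 of the set (blue). The solid line marks equality and the dashed line a 10-fold excess in PBS replicate 1, above which lie 13 of the 37 genes, Krt8, Krt18 and Cldn8 among them, while Dsc3 lies far below the solid line.

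Other transcripts stood apart in PBS replicate 1 beside these genes. All 9 mesothelial markers, genes of the lining of body cavities such as Msln, Upk3b and Wt1, were highest there, as were 5631 of all 20468 genes with counts. The summed level of the mesothelial markers was 3.76 and 6.39 CPM with MHE and 101 and 4.19 CPM with PBS. Genes of the epididymis and vas deferens, the sperm ducts, formed a list added after the data were seen, 16 of its 30 genes having been picked from these libraries. They summed to 2.83 and 3.02 CPM in the MHE libraries, and to 6335 and 2.10 CPM in PBS replicates 1 and 2. That is 0.634% of the counts of PBS replicate 1 (95% exact Clopper-Pearson interval 0.631 to 0.637, counting error only). Nearly all of that sum came from the picked genes, most of it from Akr1b7, so it describes this library and is no test. Among those picked, Akr1b7, the mouse vas deferens protein, had 0 and 12 counts with MHE and 115549 and 25 counts with PBS, and the epididymal secretory gene Crisp1 had 5 and 1 counts with MHE and 25472 and 5 counts with PBS.

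Of 13 listed genes of that kind not picked from the libraries, 3 had at least 50 counts in PBS replicate 1 (Aqp9, Crisp4 and Spink11). Lcn5, Lcn9, Lcn10, Cst8 and Adam28 were at 0 in every library. Among mammary epithelial markers, the milk protein genes Csn3 and Wap were at 0 in every library, and the list's sum, 610 and 1068 CPM with MHE against 1762 and 2349 CPM with PBS, was mostly Trf, the gene of transferrin, which had 20151 and 30287 counts with MHE and 46088 and 69371 counts with PBS. The mammary markers Cited1, Lcn2 and Prlr were highest in PBS replicate 1. Cited1 had 0 and 23 counts with MHE and 1606 and 31 counts with PBS, Lcn2 had 52 and 35 counts with MHE and 637 and 30 counts with PBS, and Prlr had 36 and 62 counts with MHE and 487 and 79 counts with PBS. Keratinocyte markers summed to 200 and 159 CPM with MHE and 70.8 and 66.3 CPM with PBS, with Ivl and Lce1a1 at 0 throughout, but Ly6d alone gave 167 and 122 CPM of the MHE sums, against 11.2 and 0.575 CPM with PBS. Of the 6 keratinocyte markers tested, 2 had positive and 4 negative log2 fold changes (Sbsn, Calml3, Dmkn and Krtdap), with a median of -1.84. Hair follicle markers summed to at most 2.42 CPM. The part of any of these tissues in the keratin and claudin levels of PBS replicate 1 was not tested.

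**Figure D4:**
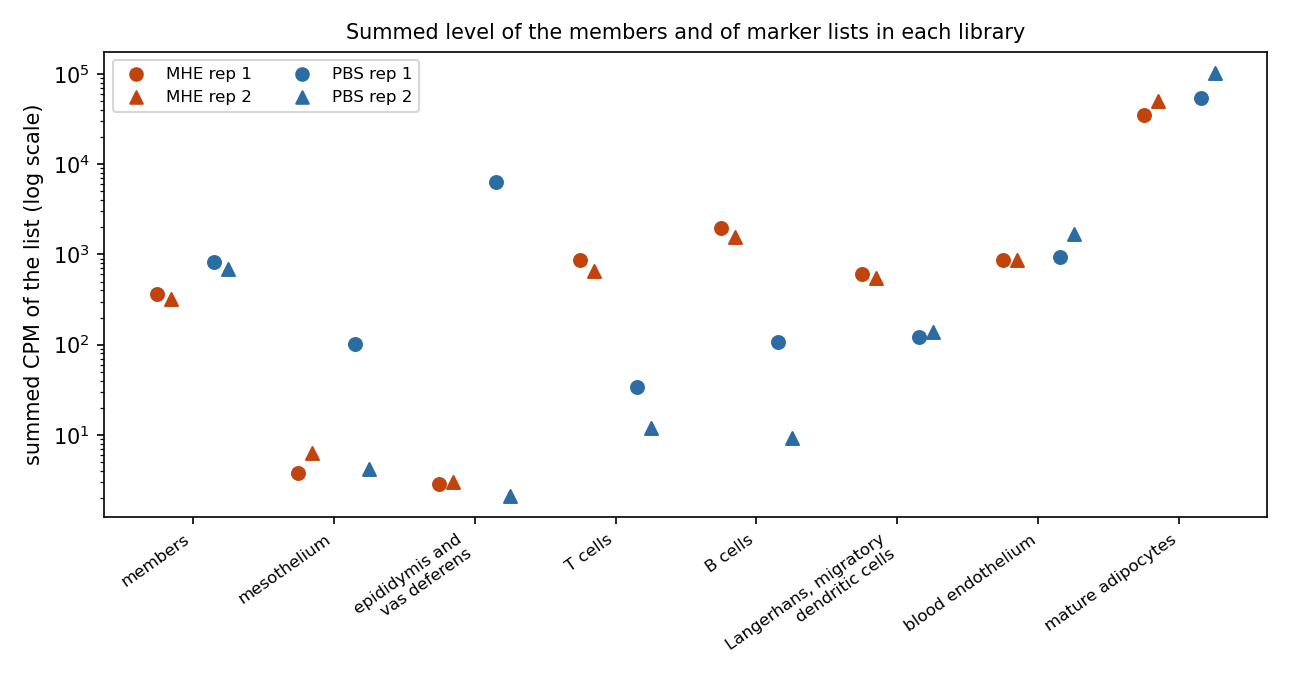
Summed CPM on a log scale of the 95 genes and of marker lists in every library, MHE (orange) left of PBS (blue), circles for replicate 1 and triangles for replicate 2. The epididymis and vas deferens list reached 6335 CPM in PBS replicate 1 and at most 3.02 CPM elsewhere. Nearly all of that sum came from genes picked from these libraries. B cell markers reached 1970 and 1574 CPM with MHE against 107 and 9.33 CPM with PBS.

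Without PBS replicate 1, 14 of 35 tested genes of the set passed (40.0%), where 16.5% of all genes tested did. Those higher with MHE were Cldn1, Cldn11, Dsc2, Dsc3, Dsg2, Ehf, Epcam and Pkp3, and those lower were Cldn5, Cldn15, Cldn22, Krt19, Krt80 and Pkp1. The spread then comes from the MHE pair alone, and PBS replicate 2 is assumed to vary like it. Without PBS replicate 2, 46 genes of the set were tested. The filter then admitted genes with counts mostly in PBS replicate 1, such as Cldn2, Cldn7, Cldn8, Cldn14, Krt5 and Krt18, which were untested with all libraries. PBS replicate 1 stands for the whole PBS group in that fit, and the spread again comes from the MHE pair. Its log2 fold changes were -7.63 for Krt8, -6.75 for Krt19, -3.49 for Krt7 and -7.74 for Cldn3. They were 7.66 for Dsc3, 2.45 for Dsc2, 1.89 for Dsg2 and 2.19 for Pkp3. Dsc2, Dsc3, Dsg2 and Pkp3 were called higher in both cases, and Krt19 was called lower in both. Epcam was called higher without PBS replicate 1 and lower without PBS replicate 2.

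Related junction genes outside the set were mostly lower with MHE without passing. Over all 16196 tested genes, 8287 had negative log2 fold changes and 4.93% passed. Of 19 further adherens junction and desmosome genes, 16 were tested, 14 had negative log2 fold changes and 1 passed. That was Pkp2, another plakophilin gene, which fell by 2.01 on the log2 scale with MHE (SE 0.35, adjusted p = 0.0479 by edgeR). It had 995 and 1196 counts with MHE, against 2970 and 5407 counts with PBS. Nectin3, an adherens junction receptor, had -1.27 ± 0.30 (adjusted p = 0.0781). The plakophilins thus took different sides, with Pkp1, Pkp2 and Pkp4 below and Pkp3 alone above in both MHE libraries. Pkp4 had a smaller log2 fold change of -0.56 ± 0.28 (adjusted p = 0.247). Of 18 tight junction genes other than claudins, 16 were tested and none passed (median -0.91). Jam3, a junctional adhesion molecule of lymphatic and other endothelium, had 1.59 ± 0.33 (adjusted p = 0.0606).

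Of 15 epithelial transcription and splicing regulators, 6 were tested and none passed (median -1.33). PBS replicate 1 was the highest library for 13 of the 15, and for 5631 of all 20468 genes with counts. Among the 6 regulators tested, Sox9 had -2.88 ± 1.28 (adjusted p = 0.213). The epithelial splicing factors Esrp1 and Esrp2 had 1 and 0 counts (Esrp1) and 9 and 6 counts (Esrp2) with MHE, against 271 and 2 counts (Esrp1) and 133 and 2 counts (Esrp2) with PBS. Of 12 epithelial protease and surface genes, 9 were tested and none passed (median -0.50), with St14, the protease that SPINT1 inhibits, at 259 and 176 counts with MHE and 264 and 7 counts with PBS. The smallest p-values there were those of Mal2 (-4.02 ± 1.11, adjusted p = 0.102) and Prss8 (-3.36 ± 1.52, adjusted p = 0.219). Of 20 intermediate filament genes other than keratins, 17 were tested and 3 were called higher: the neurofilament gene Nefh (4.87 ± 0.56, adjusted p = 0.0248), the lens filament gene Bfsp2 (4.04 ± 0.66, adjusted p = 0.0429) and the nuclear lamin gene Lmnb1 (1.64 ± 0.20, adjusted p = 0.0255). None of these 17 was called lower, but 11 had negative and 6 positive log2 fold changes, and the median was -0.85. Of all tested genes, 3.97% were called higher and 0.963% lower. In the keratinocyte list, whose tested markers were mostly lower with MHE without passing, Sfn, also called 14-3-3 sigma, passed and rose (2.35 ± 0.31, adjusted p = 0.0299).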

How the data were processed

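Stromal vascular RNA of inguinal fat was sequenced in 2 MHE and 2 PBS libraries; the labels' protocol speaks of triplicates, and other libraries were not analysed here. The authors deposited raw read counts per gene symbol, 1 file per library. TopHat2, edgeR and limma and the build mm10 come from the submitters' processing notes, without versions; the sources used here name no annotation, counting tool or strand setting, and reads of overlapping genes (Cldn3 with Wbscr25, Cldn22 with Wwc2, Krt8 with Gm36026) cannot be told apart.

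Counts were tested with edgeR 4.0.16 (R 4.3.3): filterByExpr with a count minimum of 10, TMM factors and the robust quasi-likelihood test of MHE against PBS, with Benjamini-Hochberg adjustment over 16196 genes and a threshold of 0.05. Tested on simulated data, the fit missed many of the smaller changes, and the share of false calls was above the nominal threshold. CPM values use TMM-scaled library totals, and standard errors were derived as the absolute log2 fold change over the root of F. The biological coefficient of variation was 33.6%. A permutation test of 2 against 2 cannot go below an exact two-sided p of 0.333, so none was run. Intervals and the floor of 3 counts cover counting error only. No 2 libraries differed by as little as sampling noise.

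Exon lengths for levels per kilobase came from GENCODE M21 (93 of the 95 genes), and positions and promoters from RefSeq GRCm38.p6 (62 genes with a promoter). Genes were named by role: the most abundant members and those with the smallest p-values in each role, with others added after their values were seen. The members and lists were chosen with earlier results of these data known. The alternatives tried were DESeq2 1.42.0, scaling by median-of-ratios factors or by library totals alone, a stricter or no filter, the replicate number as a block, and leaving out each library.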

Additional observations from a re-analysis of the deposited data

How the results depend on the processing

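Against 799 genes and 1 gene of the set (Dsc3) called with edgeR, DESeq2 called 2951 and 12. Leaving out 1 library at a time gave 0 to 2750 genes and 0 to 24 of the set, with 0 in both cases without either MHE library, when 2352 and 2596 genes and 2 and 3 of the set had an unadjusted p under 0.05 by edgeR. The 2 upper ends came from different fits. That for all genes was without PBS replicate 1. That for the set was without PBS replicate 2, when 46 of its genes were tested. With 1 library left out, the median log2 fold change of the set ranged from -1.88 to 0.10. Its sign changed without PBS replicate 1. Each median is over the genes that passed the filter in that fit, 35 to 47 of the set, so the genes differ between fits. Library totals alone moved the median of all genes by 0.165. The labels give both groups the numbers 1 and 2, but nothing says that they mark a shared animal or batch: same-numbered libraries had a correlation of deviations of 0.12 over a mere 2 pairs, and with the replicate number as a block 764 genes were called.

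With all libraries kept, log2 fold changes changed sign for Cldn19 (0.98), Ehf (1.65) and Epcam (0.019) under the block, for Ehf with library totals alone (0.006), and for Krt10 with median-of-ratios factors and with DESeq2 (-0.004 in each). When 1 library was left out, signs changed within the following ranges of log2 fold change: Cdh1 -3.08 to 0.10, Cldn10 -1.50 to 0.39, Cldn18 -0.68 to 0.24, Cldn23 -4.27 to 0.51, Ehf -1.05 to 5.53, Epcam -3.22 to 5.46, Krt10 -0.21 to 0.25, Krt36 -0.70 to 4.26, Krt4 -0.35 to 2.17, Krt7 -3.49 to 0.37, Krt8 -7.63 to 1.71 and Spint1 -1.82 to 0.55. The ranges of Cldn19 (-1.66 to 8.16) and Cldn4 (-4.48 to 5.97) end at fits against a library with 0 counts and are no bound. The cause was not tested. With 2 libraries a group, a library that stands apart sets the spread of the genes it is high in, and genes near the floor of 3 counts, 0.0903 to 0.108 CPM, cannot be compared.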
